A study of Mus musculus with 76 samples.

Results

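Mitochondrial ribosomal protein genes were examined in single macrophages from the atrioventricular (AV) node of mouse hearts, where the beat is relayed to the ventricles. The members are the rows of the deposited expression table whose symbol begins with MRPL or MRPS and a number. There were 77 such rows among 9235 genes: 74 genes and 3 pseudogenes. All cells came from wild-type mice (WT) of the strain C57BL/6J, and the labels give neither a treatment of the animals nor a control arm. They were sorted as live cells high in CD45, CD11b and F4/80, low to intermediate in Ly6C and low in markers of other blood lineages. Each of the 76 libraries holds 1 cell. Age, animal and batch are not labelled, so all cells count as a single sample and nothing could be tested between groups.

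The mitochondrial ribosome, or mitoribosome, sits in the mitochondrial matrix and makes the few proteins that mitochondrial DNA still encodes, all of them parts of the respiratory chain and ATP synthase. Its ribosomal RNAs come from mitochondrial DNA, but its proteins are encoded in the nucleus, made in the cytosol and imported. The small subunit decodes the messenger RNA and the large subunit forms the peptide bonds. Many of the proteins have counterparts in bacterial ribosomes, and others are found only in mitochondria. The respiratory chain is therefore built from subunits of both genomes, and its nuclear-encoded genes were taken here as the comparison.

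Estimated depth lay between 259559 and 6293518 reads per library (median 2125170), and 2324 to 4382 genes per library were above 0. Transcriptomes 13 and 19 were nearly identical, with a Pearson correlation of 0.978 between their log2(CPM + 1) values against at most 0.421 in the other 2849 pairs of libraries. They were averaged and counted as 1 cell, which left 75. Levels are in CPM, counts scaled to 1000000 per library, and a value written with ± is the mean and SD of the 75 cells. A gene is called seen in a cell where its CPM is above 0. Macrophage transcripts were abundant. Each of the 15 listed macrophage markers with values was seen in 50% of cells or more, and their summed level ran from 3677 to 77140 CPM. Of the cardiomyocyte list 5 of 10 genes had values, and their sum ran from 0 to 1236 CPM with a median of 7.8 CPM. It was 0 in 13 cells. The lists for fibroblasts, endothelium, B cells, T cells and neutrophils each had 1 gene with values. Gsn (fibroblasts) was above 0 in 40 cells and reached 3145 CPM, and Eng (endothelium) in 16 cells, up to 3099 CPM. Cd79b (B cells) was above 0 in 6 cells, up to 1351 CPM, and Lck (T cells) in 7, up to 358 CPM. Csf3r (neutrophils) was above 0 in 16 cells, up to 2044 CPM. Across cells, the summed cardiomyocyte level had a Spearman rho of 0.149 with the mitoribosomal score defined below. For the single genes rho was 0.0930 (Gsn), -0.128 (Eng), 0.152 (Cd79b), -0.157 (Lck) and 0.257 (Csf3r). The part of these transcripts in any result was not tested.

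Start regions of genes for mitochondrial proteins often hold sites for the transcription factors NRF1 and the ETS family, which are known regulators of such genes. RefSeq start regions (build GRCm38.p6, 250 bases before to 50 after the first listed start) were found for 65 of the 77 rows. Shown are the members with an NRF1 core that were seen in the most cells (Mrpl33) and in the fewest (Mrpl32), and Mrps21, second in level per length, which has an ETS motif. Capitals mark the NRF1 core GCATGCGC and the ETS motif CCGGAAG on either strand, and adjoining or overlapping matches run together.
Mrpl33, chr5:31613701-31614000, plus strand: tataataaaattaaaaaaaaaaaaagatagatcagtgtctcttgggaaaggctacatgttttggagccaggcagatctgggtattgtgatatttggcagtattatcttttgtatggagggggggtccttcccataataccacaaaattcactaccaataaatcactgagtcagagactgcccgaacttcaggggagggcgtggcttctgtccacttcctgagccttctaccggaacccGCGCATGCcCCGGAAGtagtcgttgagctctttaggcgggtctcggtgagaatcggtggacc
Mrpl32, chr13:14612988-14613287, minus strand: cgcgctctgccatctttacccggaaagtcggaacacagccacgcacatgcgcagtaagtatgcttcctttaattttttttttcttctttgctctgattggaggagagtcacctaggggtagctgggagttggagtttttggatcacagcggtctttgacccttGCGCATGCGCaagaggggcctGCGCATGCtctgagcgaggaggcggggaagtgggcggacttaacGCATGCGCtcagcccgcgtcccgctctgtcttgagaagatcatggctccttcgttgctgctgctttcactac
Mrps21, chr3:95871465-95871764, minus strand: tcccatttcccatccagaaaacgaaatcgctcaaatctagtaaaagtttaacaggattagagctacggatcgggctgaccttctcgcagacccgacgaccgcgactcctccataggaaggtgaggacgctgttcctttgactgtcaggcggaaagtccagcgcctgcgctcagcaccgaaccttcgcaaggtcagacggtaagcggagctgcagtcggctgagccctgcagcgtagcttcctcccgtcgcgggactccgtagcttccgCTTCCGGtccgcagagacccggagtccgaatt

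The NRF1 core was in 8 of the 65 start regions (12.3%), in 11 of 66 for the respiratory chain (16.7%) and in 6.03% of the 6897 start regions matched to the genes of the table. Over the 27025 genes of the reference it was in 2.80%. The ETS motif was in 21 of 65 (32.3%), in 16 of 66 for the respiratory chain (24.2%) and in 21.2% for the table. At least 1 of both was in 25 of the mitoribosomal start regions, and 4 held both. The motif AAGATGG, the core of a YY1 site, was in 20.0% of them, in 15.2% for the respiratory chain and in 8.35% for the table. The SP1 motif GGGCGG went the other way, in 49.2% of them and in 42.4% for the respiratory chain, against 65.8% for the table. Members with an NRF1 core were above 0 in a median of 13.5 cells and those without it in 22. Members with the ETS motif were above 0 in a median of 26 cells and those without it in 17. These letters are a description of the windows and were not tied to expression by any test.

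Transcripts of mitochondrial ribosomal proteins were thinly spread over the cells. The members together took 0.254% ± 0.118 of all CPM, with a lowest value of 0.0659%, and a highest of 0.774%. The 78 respiratory chain genes took 0.974% ± 0.433, and the 80 cytosolic ribosomal protein genes took 0.928% ± 0.351. Mean levels of single genes ran from 0.205 to 777 CPM in the respiratory chain. Among the cytosolic ribosomal protein genes they ran from 0.260 to 1026 CPM. Whether reads of the lowest of these genes were lost to similar copies was not tested. A cell had between 11 and 41 of the 77 rows above 0, with a median of 22, and 5 to 23 rows at 10 CPM or more, with a median of 12. Of the 78 respiratory chain genes, a cell had 30 to 72 above 0, with a median of 49. No cell therefore showed a full set of mitoribosomal protein transcripts at this depth.

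Of the 77 rows 10 were seen in 50% of cells or more, or 13.0%, against 61 of the 78 respiratory chain genes, or 78.2%, and 23.9% of all genes in the table. At a threshold of 10 CPM the counts were 2 rows, or 2.60%, and 29 respiratory chain genes, or 37.2%, where the share of all genes was 8.88%. The members were therefore less often widely detected than genes of the table in general under both thresholds, a difference for which no test was made. Thinning each cell to 250000 reads left 3 rows, or 3.90%, 47 respiratory chain genes, or 60.3%, and 13.2% of all genes. The median row was above 0 in 20 cells, the median respiratory chain gene in 49.5 and the median gene of the table in 20. Members sat near the middle of all genes, and few of them reached the widely detected end.

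**Figure D1:**
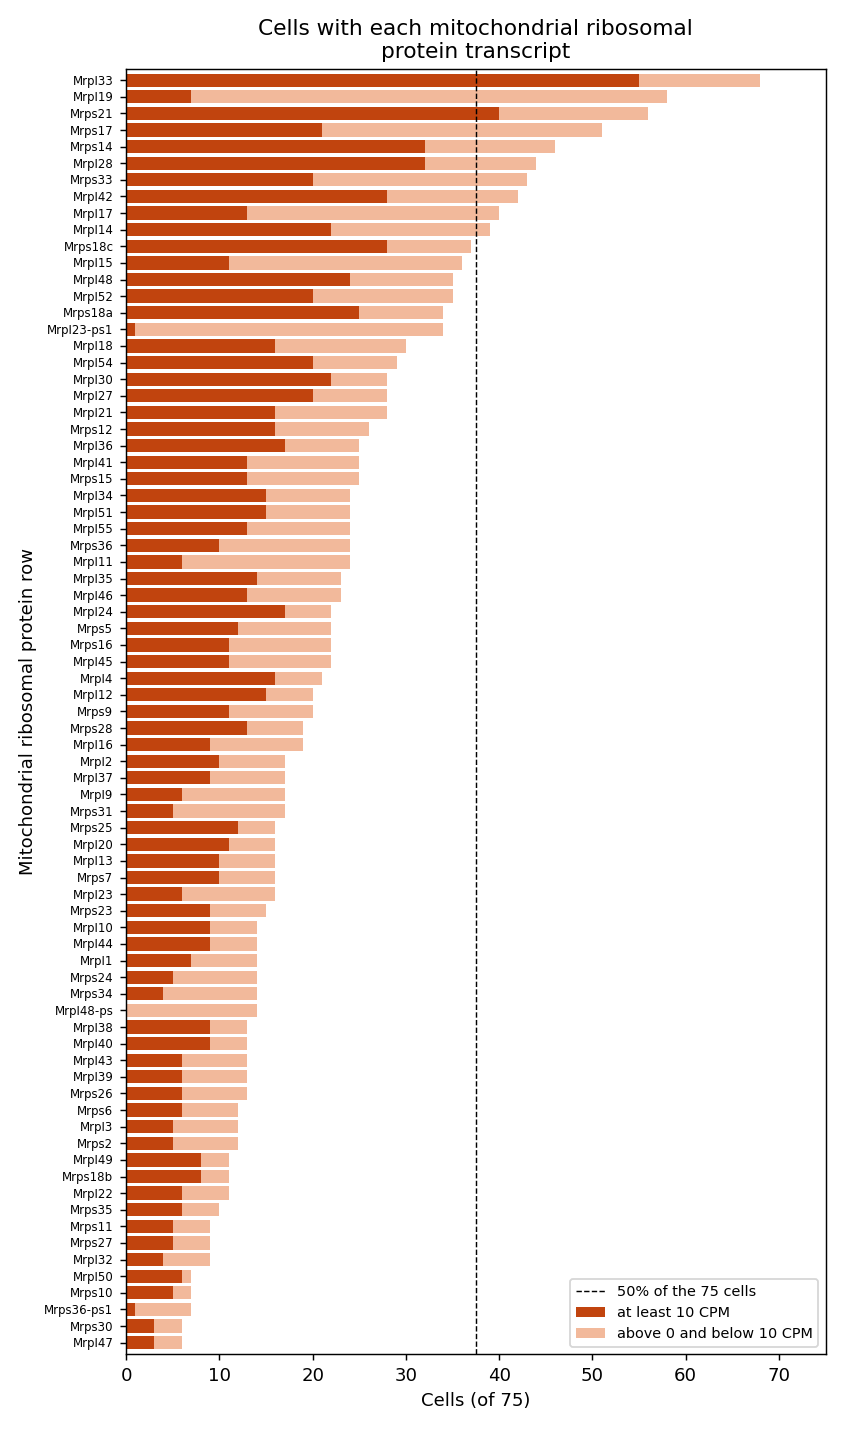
Number of the 75 cells with each of the 77 mitochondrial ribosomal protein rows, dark for at least 10 CPM and light for values above 0 and below 10 CPM; the dashed line marks 50% of the cells. Mrpl33, at 68 cells, leads, 10 rows pass the line, and for Mrpl19 the light part makes up 51 of 58 cells.

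Level per length was also lower than in the respiratory chain. Transcript lengths from the reference annotation (GENCODE M21), taken as the median of a gene's protein-coding transcripts, were found for 74 rows and for 78 respiratory chain genes. Mean CPM per kilobase of transcript had a median of 18.7 over the mitoribosomal genes, with quartiles of 8.76 and 39.7. Over the respiratory chain genes the median was 108, with quartiles of 48.7 and 205. The mitoribosomal transcripts were longer, with a median of 1225 bases against 746 bases. Where a gene was above 0, its median CPM in those cells was 16.2 for the median row, 43.5 for the median respiratory chain gene and 10.0 for the median gene of the table. Both the share of cells with a transcript and the level within those cells thus lay below those of the respiratory chain.

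**Figure D2:**
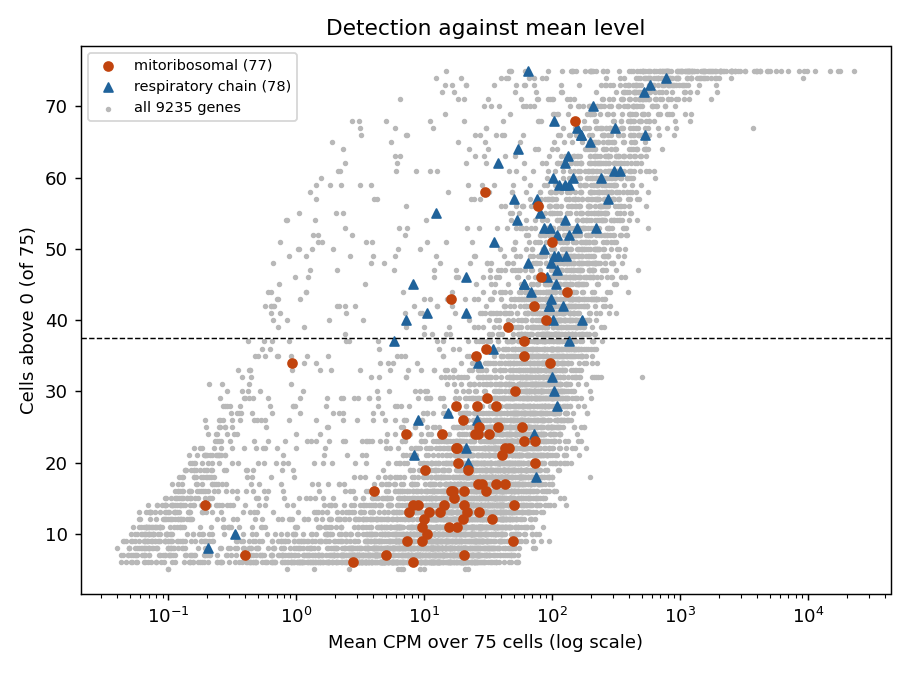
Cells above 0 (of 75) against mean CPM (log scale) for the 77 mitoribosomal rows, the 78 respiratory chain genes and all 9235 genes; the dashed line marks 50% of the cells. Most of the mitoribosomal points lie below the line and to the left of the respiratory chain points, within the cloud of all genes.

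Among the proteins of the large subunit, Mrpl33, the counterpart of bacterial L33, was seen in the most cells. It was above 0 in 68 of 75 cells, or 90.7% (exact 95% Clopper-Pearson interval 81.7 to 96.2%, which covers the sampling of cells only). Its lowest value was 0, its median 55.9 and its highest 790 CPM, and it averaged 151 ± 195 CPM, or 316 CPM per kilobase. Most cells thus had it, at levels from low to high. Mrpl28, the counterpart of L28, was above 0 in 44 cells, with a median of 0.7 and a highest value of 1295 CPM, and averaged 130 ± 270 CPM. Mrpl17, the counterpart of L17, was above 0 in 40 cells with a median of 0.3 CPM, but its highest cell had 2186 CPM and held 32.6% of its summed level. A high mean thus came from few cells for Mrpl17 and from many for Mrpl33.

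Mrpl19 was above 0 in 58 cells but at 10 CPM or more in 7, and where it was above 0 its median was 1.0 CPM. Of its values above 0, 87.9% lay below 10 CPM, the highest share among the 10 widely seen members, followed by Mrpl17 at 67.5%. Mrpl15 was of the same kind, in 36 cells with 11 at 10 CPM or more, and so was Mrps17 of the small subunit, in 51 cells with 21 at 10 CPM or more. Most of the cells that had these genes had them at low values. In the reference annotation exons of Mrpl19 overlap those of Gcfc2 on the other strand. Since this chemistry keeps no strand, reads from the overlap of such a pair could not be told apart. Gcfc2 had no values, and whether any of its reads were counted for Mrpl19 was not tested. Exons on the other strand overlapped those of 20 members, and for 15 of them such a gene codes for a protein.

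Of the large subunit proteins with conserved bacterial counterparts, Mrpl2, Mrpl3, Mrpl4, Mrpl22, Mrpl23 and Mrpl24 were chosen for description, and each was seen in fewer than 50% of cells. So were most genes: 13.0% of the rows and 23.9% of all genes in the table reached that share. Mrpl4 was above 0 in 21 cells and averaged 40.3 ± 122 CPM, and Mrpl24 in 22 cells at 42.9 ± 126 CPM. Mrpl2, the counterpart of the conserved bacterial protein at the catalytic centre, was above 0 in 17 cells at 36.2 ± 179 CPM. Each was thus missing from the reads of most cells. Mrpl22 was above 0 in 11 cells, Mrpl3 in 12 and Mrpl23 in 16, and in each of these the median was 0. In the highest cell Mrpl22 had 784 CPM and Mrpl3 had 508 CPM, which made up 66.5% and 68.5% of their summed levels. Mrpl9 rested on 1 cell even more, with 2506 CPM in transcriptome 3, or 78.2% of its sum; its mean of 42.8 CPM fell to 9.46 CPM without that cell.

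Some members have roles beyond the ribosome. Mrpl12, which also binds the mitochondrial RNA polymerase, was above 0 in 20 cells and averaged 18.2 ± 64.7 CPM. Mrpl41, which is also linked to apoptosis and the cell cycle, was above 0 in 25 cells at 26.8 ± 80.9 CPM. Mrps30, which despite its name belongs to the large subunit, was above 0 in 6 cells and averaged 2.78 ± 14.6 CPM, or 0.839 CPM per kilobase, the lowest level per length among the genes. Mrpl47, also above 0 in 6 cells, averaged 8.09 ± 47.8 CPM, and these are the genes seen in the fewest cells. Mrps36 is now known as a part of the 2-oxoglutarate dehydrogenase complex and not of the mitoribosome; it was above 0 in 24 cells at 7.26 ± 26.3 CPM.

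In the small subunit, Mrps21 led by detection and level per length, above 0 in 56 cells and at 10 CPM or more in 40. Its median was 14.3 and its highest value 754 CPM, and it averaged 77.8 ± 140 CPM, or 174 CPM per kilobase. Mrps17, the counterpart of S17, followed with 51 cells and a mean of 100 ± 258 CPM, and 21 cells were at 10 CPM or more. Mrps14, the counterpart of S14, was seen in 46 cells, with a median of 2.7 CPM and a mean of 81.4 ± 158 CPM, and Mrps33, a protein with no bacterial counterpart, with 43 cells and 16.1 ± 30.3 CPM. The coefficient of variation (SD over mean) was 1.80 for Mrps21 and 1.88 for Mrps33, against a median of 3.64 over the rows; of the members only Mrpl33, at 1.29, was lower. Mrps10, the counterpart of S10, was at the other end, above 0 in 7 cells at 4.98 ± 22.7 CPM.

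The mouse has 3 proteins related to bacterial S18, encoded by Mrps18a, Mrps18b and Mrps18c. Mrps18c takes the place of S18 in the small subunit, Mrps18b sits elsewhere in that subunit, and Mrps18a belongs to the large subunit. Mrps18a was above 0 in 34 cells, with 0 as its median and 1001 CPM as its highest value, and averaged 96.9 ± 217 CPM. Mrps18c was above 0 in 37 cells and averaged 60.2 ± 133 CPM. Mrps18b was above 0 in 11 cells and averaged 18.2 ± 72.1 CPM. Per kilobase the means were 129, 94.4 and 19.3 CPM for Mrps18a, Mrps18c and Mrps18b. Mrps18b was seen in the fewest cells of the 3 and had the lowest mean. The SDs describe the spread between cells, and the differences between the means were not tested.

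Genes of both subunits were seen about as rarely. Of the 48 large subunit genes 6 were seen in 50% of cells or more (12.5%), and of the 25 small subunit genes 4 (16.0%), with medians of 22 and 16 cells. Of the 48 genes with a bacterial counterpart 8 reached that share (16.7%), and of the 26 without one 2 did (7.69%), Mrpl42 and Mrps33. Median mean levels were 27.9 CPM with and 23.5 CPM without a bacterial counterpart. Within a cell the balance of the subunits swung widely. Small subunit transcripts made up between 1.68% (transcriptome 15) and 89.6% (transcriptome 51) of the summed CPM of both subunits, with a median of 31.4%. Across cells, summed large and small subunit CPM had a Spearman rho of -0.00461 and a Pearson r of 0.0619 (n = 75). With each gene at equal weight, as the mean standardised log2(CPM + 1) of each subunit, rho was 0.371, and 0.226 after adjustment for the number of genes above 0 in the cell.

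In most cells a few members carried most of the mitoribosomal CPM. The highest member of a cell held 29.1% of that cell's mitoribosomal CPM in the median, from 14.4% (Mrpl18 in transcriptome 46) to 75.1% (Mrpl17 in transcriptome 39), and the highest 3 held 64.9% in the median and under 50% in 16 cells. In the respiratory chain the highest gene held 17.3% in the median. The highest member changed from cell to cell, with 37 different members in that place, none of them in more than 4 cells. Seen by gene, the highest of the 75 cells held 32.4% of the summed level of the median row, 11.7% of the median respiratory chain gene and 35.4% of the median gene of the table. Amplified copies of 1 molecule are counted separately in this chemistry, so a high value in 1 cell may stand for few molecules.

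**Figure D3:**
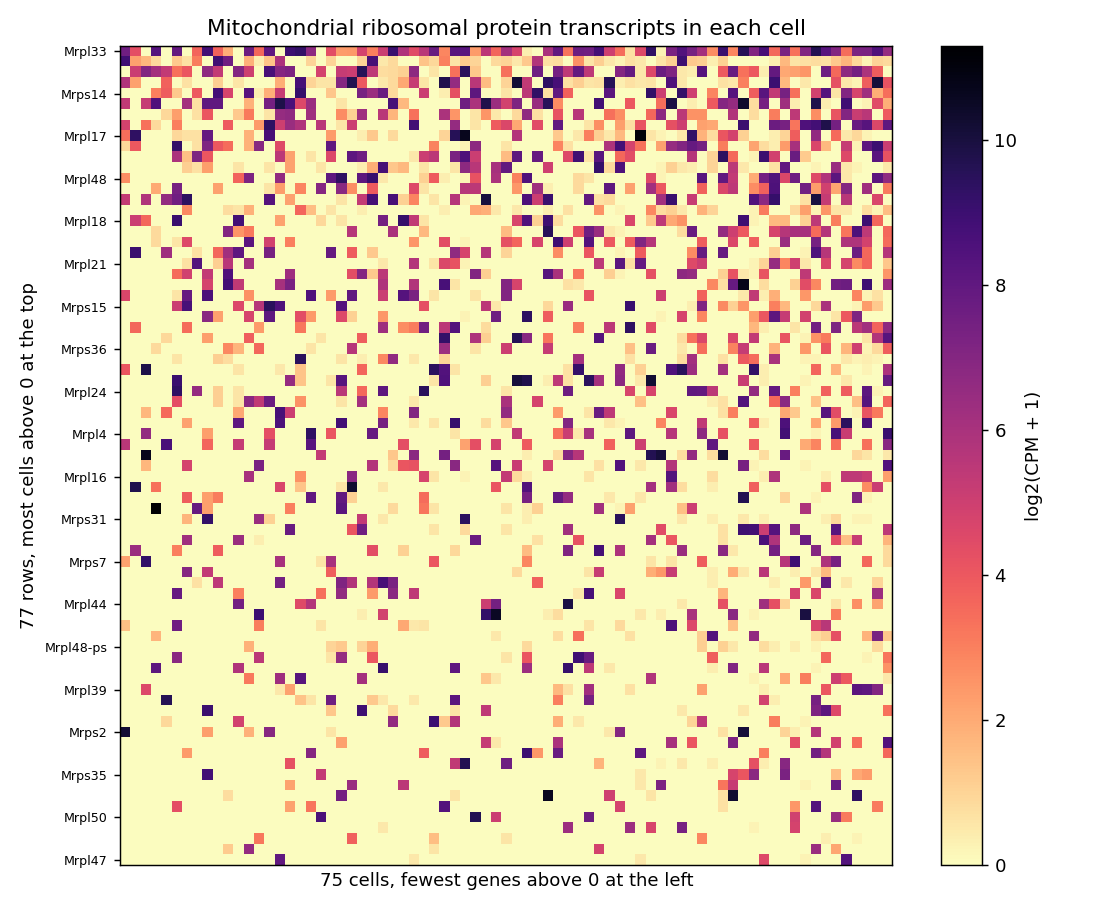
log2(CPM + 1) of the 77 rows (most cells above 0 at the top; row names are thinned for space) in the 75 cells (fewest genes above 0 at the left). Below the first rows the high values are scattered, with a few dark cells per row and a median of 22 rows above 0 per cell.

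The 3 pseudogene rows differed in how far they were seen together with their parent gene. Mrpl48-ps was above 0 in 14 cells, each of which also had Mrpl48, which was above 0 in 35. It reached at most 2.8 CPM, and with a Spearman rho of 0.703 it formed the highest pair among the members. In those 14 cells Mrpl48 had 21.0 to 650 CPM with a median of 268 CPM. In the 21 cells with Mrpl48 and without the pseudogene row, the median of Mrpl48 was 6.7 CPM. The pseudogene's summed level was 0.321% of its parent's. The annotated pseudogene is 98.1% identical to the Mrpl48 transcript over 636 aligned bases, with a longest identical run of 210 bases. The printed stretch, from the GENCODE M21 transcripts, bases 350 to 449 of the Mrpl48 coding sequence (chromosome 7) and the matching bases of the pseudogene (chromosome 4), was chosen because it holds the most differences in any 100 coding bases, and capitals mark its 7 differences.
Mrpl48: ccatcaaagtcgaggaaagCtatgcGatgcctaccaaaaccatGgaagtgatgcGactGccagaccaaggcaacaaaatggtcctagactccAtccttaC
Mrpl48-ps: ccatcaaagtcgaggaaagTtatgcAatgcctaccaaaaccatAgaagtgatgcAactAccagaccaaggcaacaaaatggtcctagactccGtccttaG

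Mrpl23-ps1 was 100% identical to the Mrpl23 transcript over 540 aligned bases of its own 580. It was above 0 in 34 cells and Mrpl23 in 16, with 12 cells holding both and a rho of 0.385. In the 22 cells with the pseudogene row alone its median was 0.55 CPM. Mrps36-ps1, 99.3% identical over 306 bases, was above 0 in 7 cells, 6 of which also had Mrps36, with a rho of 0.437. The values of these 3 rows and of their parents are uncertain, because reads from identical stretches can be given to either copy or to neither. The pseudogene rows made up little of the summed level, which was 0.254% of all CPM with and without them.

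Members varied together from cell to cell only weakly. Among the 72 rows above 0 in at least 8 cells (5 were in fewer), the 2556 pairs had a mean Spearman rho of 0.0261 with an SD of 0.118, and 57.7% were above 0. The mean was 0.0671 over 3003 pairs of respiratory chain genes, of which 71.1% were above 0, and 0.103 over 3160 pairs of cytosolic ribosomal protein genes. Over all 8351 genes filtered alike it was 0.0139, and 53.7% of pairs were above 0. A rho above 0.3 was found for 1.21% of the mitoribosomal pairs, 2.40% of the respiratory chain pairs and 1.00% of all pairs. With this filter alone the mitoribosomal mean thus stood nearer to all genes than to the respiratory chain, but the lists differ in detection. In genes seen in 20 to 37 cells the means were 0.0360 (members), 0.0393 (respiratory chain) and 0.0175 (all genes). At 38 cells or more they were 0.0371, 0.0737 and 0.0169. At 8 to 19 cells they were 0.0172, 0.0753 (3 pairs) and 0.0116. With counts this sparse, so small a difference between the members and all genes is no finding. The cells differ in depth and in genes detected, and the labels do not say whether they share a preparation. Rank correlations adjusted for genes above 0 per cell averaged 0.00482 for the members, 0.0301 for the respiratory chain and 0.00173 for all genes.

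**Figure D4:**
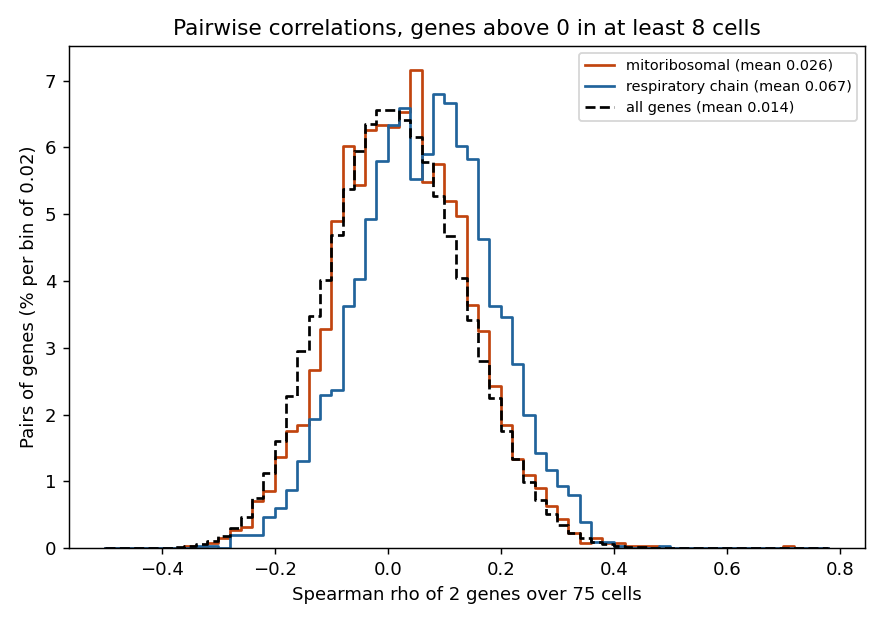
Share of gene pairs (% per bin of 0.02) by Spearman rho over the 75 cells, for mitoribosomal rows, respiratory chain genes and all genes above 0 in at least 8 cells, over the range from -0.5 to 0.8. The mitoribosomal line (mean 0.026) lies close to that of all genes (0.014), and the respiratory chain line (0.067) lies to the right of both.

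Pairs within the large subunit had a mean rho of 0.0237, pairs within the small subunit 0.0179 and pairs between them 0.0279, so genes of 1 subunit were no closer to each other than to the other subunit. Apart from Mrpl48 and its pseudogene, the highest pairs were Mrpl17 with Mrps2 (0.469), Mrpl10 with Mrpl32 (0.455), Mrpl37 with Mrps18b (0.430) and Mrpl1 with Mrpl49 (0.409). These are the top of 2556 pairs and rest on few cells: Mrpl10 and Mrpl32 were both above 0 in 6. The lowest pairs were Mrps14 with Mrps28 (-0.348), Mrpl34 with Mrps24 (-0.318), which shared no cell, and Mrpl24 with Mrps28 (-0.309). By its mean rho with the other members, Mrpl48 led at 0.0715, followed by Mrpl36 at 0.0639, Mrps34 at 0.0619 and Mrpl54 at 0.0617. Without the pseudogene rows Mrpl48 stood at 0.0610, behind Mrpl42 at 0.0655, Mrpl36 at 0.0649, Mrpl54 at 0.0627 and Mrpl33 at 0.0624. Mrpl9 (-0.0449), Mrpl19 (-0.0357) and Mrps28 (-0.0214) came last.

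Several members have a neighbour whose start lies within 1000 bases and which is transcribed in the opposite direction. In the reference annotation this held for 18 members, counting pairs whose starts overlap by up to 100 bases, and for 11 of these pairs the neighbour had values. That count leaves out 1 pair of members, Mrpl46 and Mrps11. Their RefSeq start regions overlap on opposite strands (chr7:78783040-78783339, minus, and chr7:78782881-78783180, plus). The Spearman rho ran from -0.181 to 0.125 over these 11 pairs, with a median of 0.0157, and 8 were above 0. Mrpl36 and Ndufs6, a subunit of respiratory complex I, form such a pair; they were above 0 in 25 and 46 cells, 17 cells had both, and rho was 0.0742. Their exons overlap on opposite strands, so reads from the overlap could not be told apart. Mrpl32 shares its start region, printed above, with Psma2, a proteasome subunit. Mrpl32 was above 0 in 9 cells and Psma2 in 49, with a rho of 0.00444. In both pairs the neighbour was seen in more cells, and rho was near 0. Some pairs with overlapping exons on opposite strands are not among the 11. Where both genes had values, rho over all such overlaps ran from -0.114 (Mrpl48 with Rab6a) to 0.283 (Mrpl18 with Tcp1). Mrpl18 and Tcp1 were both above 0 in 24 cells. Reads from these overlaps could not be told apart either.

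The comparison with the respiratory chain over cells depended on how the level was expressed. The summed CPM of the members ran from 659 in transcriptome 70 to 7743 in transcriptome 69, with a median of 2529 CPM, and that of the respiratory chain from 3310 to 24260 CPM, with a median of 9248 CPM. The sums had a Spearman rho of 0.0444 and a Pearson r of 0.138 (n = 75), and r was 0.0420 without the 2 cells farthest from the median. Respiratory chain CPM was 3.64 times mitoribosomal CPM in the median cell, 29.9 times in transcriptome 49, and below it in 2 cells. Cells high in one sum were thus not regularly high in the other.

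**Figure D5:**
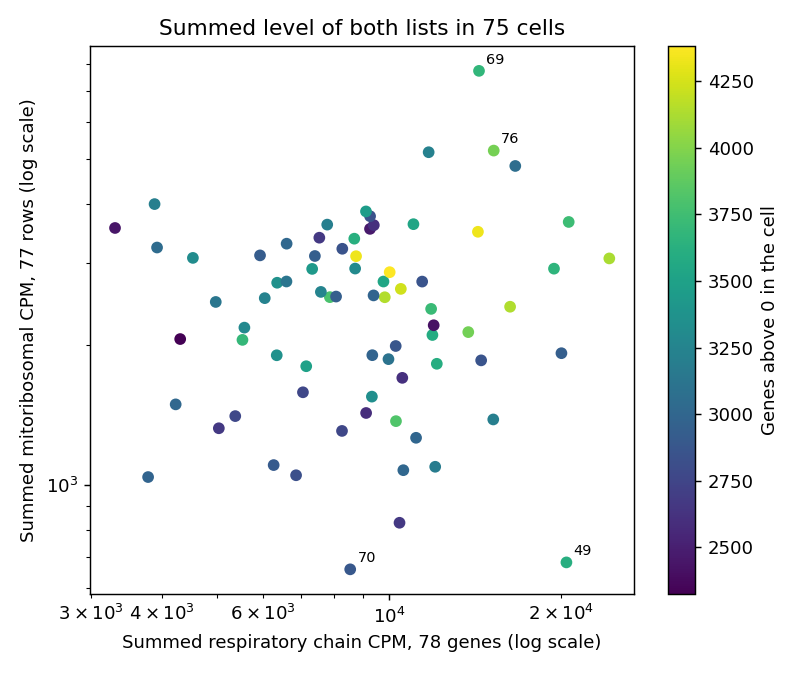
Summed mitoribosomal CPM (77 rows) against summed respiratory chain CPM (78 genes) in 75 cells, both on log scales and coloured by genes above 0, with 4 transcriptomes numbered. The points form no band (Spearman rho 0.0444), and transcriptome 49 combines 682 mitoribosomal with 20409 respiratory chain CPM.

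A score that gives each gene equal weight, the mean standardised log2(CPM + 1) of a list, gave another picture. The mitoribosomal score was higher in cells with a higher respiratory chain score, with a Spearman rho of 0.475 and a Pearson r of 0.597 (n = 75), and r was 0.550 without the 2 farthest cells. Both scores also went with the number of genes above 0 in the cell, with a rho of 0.548 for the mitoribosomal and 0.642 for the respiratory chain score. Adjusted for that number, rho between the scores was 0.193. It was 0.192 in the 38 cells with fewer and 0.573 in the 37 cells with more genes above 0, and 0.260 and 0.587 where the scores were standardised anew within those cells. In cells thinned to 250000 reads rho was 0.518, and 0.225 after adjustment for genes above 0 per thinned cell. With the cytosolic ribosomal score rho was 0.306, and 0.145 after adjustment for genes above 0.

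Complexes were assigned by gene symbol alone, so every Nduf gene, Ndufa4 among them, counted as complex I. By complex, rho with the mitoribosomal score was 0.425 for complex I, 0.398 for complex III, 0.417 for complex IV and 0.418 for ATP synthase. It was 0.137 for complex II, whose subunits are all encoded in the nucleus and which rested on 4 genes. Adjusted for genes above 0, these values were 0.173, 0.238, 0.161, 0.161 and -0.0661. The difference between complex II and the others was not tested. Among respiratory chain genes, Cox6a1, a subunit of complex IV, was highest by mean at 777 ± 709 CPM and above 0 in 74 cells, followed by Cox4i1 of complex IV (576 ± 668 CPM) and the ATP synthase subunits Atp5a1 (532 ± 871 CPM) and Atp5b (519 ± 832 CPM). Cox8a of complex IV was seen in all 75 cells, Cox4i1 in 73 and Atp5b in 72, and no mitoribosomal gene was seen in all cells.

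The score bore little relation to the macrophage programmes. The Spearman rho was -0.0187 with the MHC class II score, -0.0504 with the tissue-resident score and 0.150 with the monocyte-derived score. It was -0.210 with the immediate early score and -0.109 after adjustment for genes above 0. With the summed levels of the 4 programmes, in the same order, rho was -0.0362, -0.0675, 0.101 and -0.262. Over 61 respiratory chain genes above 0 in at least 38 cells, rho with the mitoribosomal score averaged 0.158. Among 2140 genes outside both lists filtered alike it averaged 0.0749, and neither average is adjusted for genes above 0 per cell. The most similar were Psma4, a proteasome subunit (0.504), Fermt3, an integrin activator (0.458), Capn2, a calpain protease (0.452), Inpp5d, a lipid phosphatase (0.446), and Tubb6, a tubulin (0.441). The most opposed were Adap2 (-0.338), Aif1 (-0.324), Trf, which encodes transferrin (-0.305), Egr1, an immediate early transcription factor (-0.302), and Ncoa3 (-0.280). These are the ends of a ranking of 2140 values. Adjusted for genes above 0 per cell, rho was 0.436 for Psma4, 0.372 for Fermt3, 0.351 for Capn2, 0.280 for Inpp5d and 0.402 for Tubb6. On the other side it was -0.266 for Adap2, -0.272 for Aif1, -0.251 for Trf, -0.208 for Egr1 and -0.266 for Ncoa3.

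Other listed genes of mitochondrial gene expression were mostly seen in fewer than 50% of cells. The background is that 23.9% of all genes were seen in 50% of cells or more and the median gene in 20 cells. Of 10 translation factors with values none was seen in 50% of cells or more, with Gfm1, an elongation factor, in 25 and Guf1 in 18. Of 11 assembly and rRNA processing genes none reached that share, with Dhx30, an RNA helicase, in 22 cells and Rpusd4, a pseudouridine synthase, in 15. Among 9 tRNA synthetases Lars2 was above 0 in all 75 cells with a median of 27.4 CPM, and Kars was next with 29 cells. Lars2 averaged 47.5 CPM, or 35.1 CPM without transcriptome 46, its highest cell. Of 9 mitoribosomal proteins and partners under other names, Chchd1 reached it with 43 cells and Aurkaip1 was next with 32; Dap3, the small subunit protein also called Mrps29, was in 19. Of 6 genes for the transcription and upkeep of mitochondrial DNA, Ssbp1, which binds single-stranded DNA, was above 0 in 38 cells and Polg2 in 37.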

How the data were processed

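The authors deposited 1 table of CPM (counts scaled to 1000000 per library), given to 1 decimal, with 9235 genes and 76 libraries. Tools named in the submitters' processing notes are HTSeq 0.6.0 and STAR 2.3.0, and the genome build is mm9; which annotation was used is not stated there. Per the labels' protocols, cells were captured on a Fluidigm C1 chip, with SMARTer amplification and Nextera XT libraries. To general knowledge this chemistry carries no molecular identifiers and keeps no strand. Every gene was above 0 in at least 6 libraries, so all 77 rows had passed that filter. Symbols were matched without regard to case: 8378 were current, 743 older and 114 unmatched.

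Members and lists were chosen with earlier results of these data known. The respiratory chain list was set by symbol patterns; Atp5s, Atp5sl and Cox4nb matched but are not subunits and were left out. Reads per library were estimated from the step between low CPM values, with the lowest value above 0 taken as 1 read; on 11 simulated libraries 10 estimates came within 2%, and the deepest libraries are the least certain. Cells were thinned to 250000 estimated reads as an alternative. Other alternatives were a threshold of 10 CPM, a pseudocount of 10 in place of 1, filters of 8 or 38 cells, all 76 libraries, and adjustment for genes above 0. The genes named were, by a written rule, the extremes of level, detection and correlation and listed groups; Mrpl15, Mrpl42, Mrps33, the members shown with sequences or neighbours, and the top members of single cells were named after their values were seen. No p-value was computed, no doublet caller was run and every cell was kept. Subunit and bacterial counterpart were assigned from general knowledge. Python 3.11.15, pandas 2.3.3 and scipy 1.17.1 were used.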

Additional observations from a re-analysis of the deposited data

How the results depend on the processing

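The mean summed levels of both lists changed by less than the spread between cells under every alternative run. These settings keep the shares of CPM nearly as they are, so a large change could not arise. The small changes therefore lend the levels no support. At 10 CPM, 2 mitoribosomal rows and 29 respiratory chain genes were detected in at least 50% of the cells, against 10 and 61 above 0, and thinning left 3 and 47. The mean rho of the members, 0.0261, was 0.00867 by Pearson correlation of log2(CPM + 10), 0.0161 with values below 10 CPM set to 0, 0.00482 adjusted for genes above 0, 0.0116 in cells with fewer genes above 0, and 0.00809 when thinned and adjusted. Over all genes these settings gave 0.00541, 0.0106, 0.00173, 0.00297 and 0.00108. The mean rho of the respiratory chain, 0.0671, was 0.0301 adjusted, 0.0227 in cells with fewer genes above 0, and 0.0236 when thinned and adjusted. The rho between the scores, 0.475, was 0.193 adjusted, 0.260 in cells with fewer genes above 0 (scores standardised within them), and 0.225 when thinned and adjusted. Thinning with adjustment, leaving out pseudogene rows and adding back Atp5s, Atp5sl and Cox4nb were chosen after seeing the data. The other settings moved these values by less than 1.5 times. The cause of these changes was not tested. No paired analysis was possible because there is 1 group. In the median row 43.6% of the values above 0 lay below 10 CPM, against 50.0% in the median gene of the table.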
